A study of Mus musculus with 8 samples.

Results

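The genes described here encode secreted pentraxins, cerebellins and C1q-like proteins, many of them organisers of synapses, and they were followed on arrays of cultured mouse hippocampal neurons. They were 10 listed genes, namely Ptx3 and Ptx4, Nptx1, Nptx2 and Nptxr, Cbln1, Cbln2 and Cbln4, and C1ql2 and C1ql3. A probe was taken where its transcript identifier mapped through RefSeq to one of these symbols. That gave 11 probes of 9 genes, out of 39429 probes of 32585 genes or unnamed transcripts. Nptxr, which encodes a membrane-anchored receptor of neuronal pentraxins, had 0 probes under this rule and was not analysed here. The genes were chosen by their family with their Nr4a1 minus GFP differences on these same arrays known, so those differences are given as a description, without a test.

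The study asked what the orphan nuclear receptor Nr4a1, an activity-induced transcription factor, does to gene expression in neurons. Dissociated hippocampal neurons were grown in 6-well plates for 10 days, infected with lentivirus carrying Flag-Nr4a1 (4 arrays) or GFP (4 arrays), and kept for 6 further days. The labels name neither the promoter of the transgenes nor the share of cells infected. Culture RNA was labelled with Cy5 and hybridised against a commercial mouse reference RNA in Cy3, and a level below is the log2 ratio of culture over reference. Each Nr4a1 array had a GFP partner with the same pair tag, and the pairs are called replicates 1 to 4. Nothing in the labels says that replicates came from separate cultures, so errors and p-values reflect only how these samples varied, and that variation may be technical.

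Pentraxins are multimeric secreted proteins. Long pentraxins such as Ptx3 act in innate immunity, and the neuronal pentraxins Nptx1 and Nptx2 gather AMPA-type glutamate receptors at excitatory synapses. Cerebellins and C1q-like proteins carry the globular domain of complement C1q and bridge the synaptic cleft, with presynaptic neurexins on one side and delta-type or kainate-type glutamate receptors, Adgrb3, Dcc or Neo1 on the other. Nptx2, also known as Narp, was first described as an immediate early gene of neuronal activity, and C1ql2 and C1ql3 are known from the mossy fibre synapses that dentate granule cells make.

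Median Cy5 signals of the arrays ran from 137 to 194 scanner units over backgrounds of about 30, with 60.9% to 69.2% of spots well above background. All GFP arrays lay on 1 slide, Nr4a1 replicates 1 to 3 on the second and Nr4a1 replicate 4 on the third, so slide and group cannot be told apart by any fixed term. The probe of Nr4a1 itself had overlapping groups, at -1.32, -2.49 and -2.37 in Nr4a1 replicates 1, 2 and 4, against -2.06, -2.12, -1.89 and -2.49 in GFP replicates 1 to 4. Its spot on Nr4a1 replicate 3 was left out, and the difference was 0.16 ± 0.17 (SE, limma, adjusted p = 0.525). This check turned on single pairs, since the difference was 0.43 and passed without replicate 2 and was -0.12 without replicate 1. Whether this probe reads the delivered sequence is not known from the files or labels. Nr4a2 differed by 0.47 ± 0.27 (adjusted p = 0.253) and passed without replicate 2 (0.76) and with median centring, and Nr4a3 was too dim to test. Arrays are therefore named by their labels throughout.

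All 9 genes with a probe passed the filter on dim probes. Ptx3, Ptx4, Nptx1 and C1ql3 were lower in Nr4a1 cultures, Nptx2, Cbln1 and Cbln2 were higher, and Cbln4 and C1ql2 did not pass the threshold (limma with the pair as a block, adjusted p under 0.05). Across all 20960 genes or unnamed transcripts tested, 23.5% passed, 12.4% being higher and 11.1% lower. Since the list was drawn up with this contrast known, nothing is read from the 7 of 9. The median difference over the 9 genes was -0.16 log2 units and over everything tested -0.0023, and the median size of the difference was 0.47 and 0.11. Of the 7 genes with a value on every array, 4 had groups that did not overlap, which are Ptx3, Ptx4, Cbln1 and C1ql3. The same held for 24.4% of all features with 4 values a group. In bulk RNA, fewer cells of a type and less RNA per cell cannot be told apart.

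**Figure D1:**
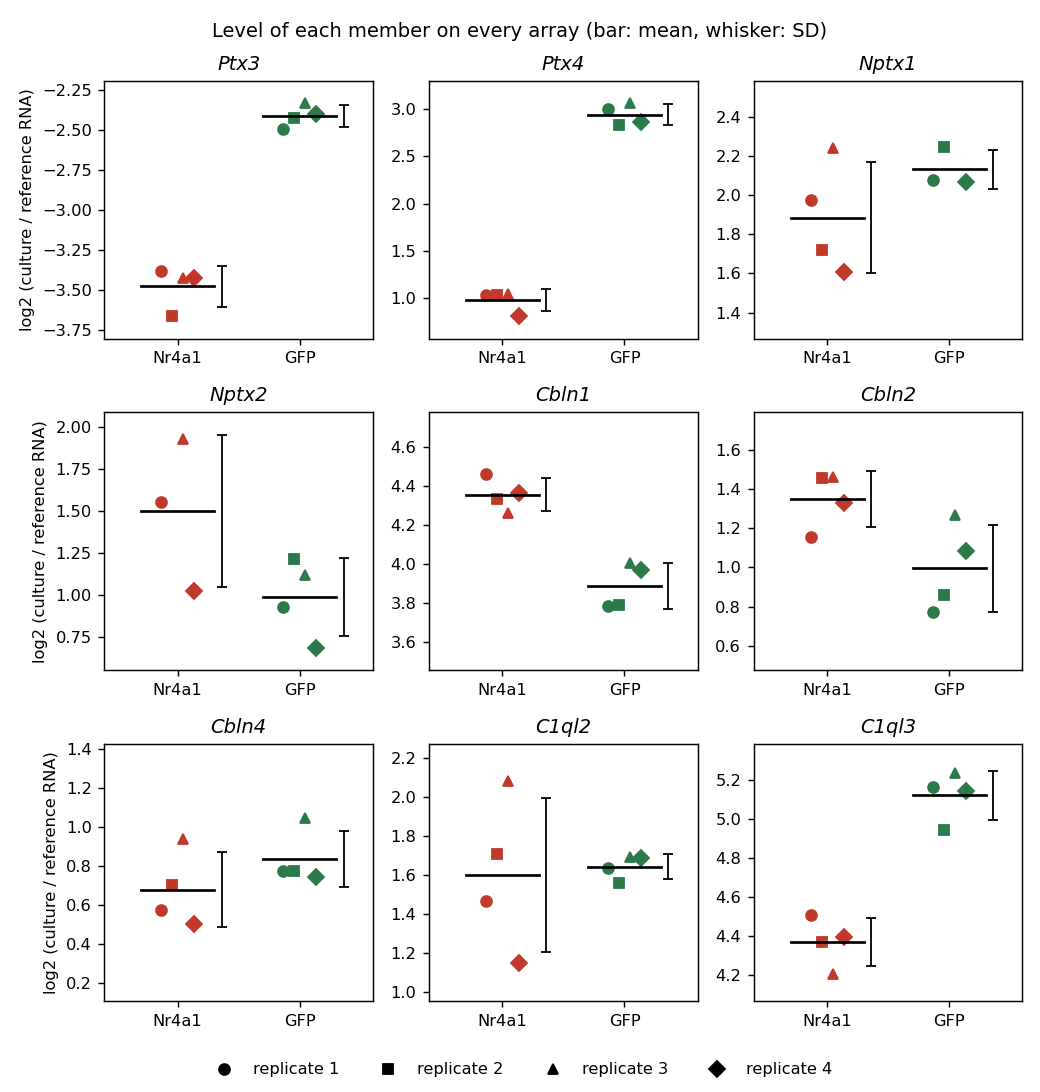
Level of each gene as log2 of culture over reference RNA on every Nr4a1 and GFP array, with a panel per gene and its own vertical scale; horizontal lines are group means, whiskers are SD, and marker shapes give the replicate. The Ptx4 arrays lie between 0.81 and 1.04 in Nr4a1 and between 2.84 and 3.06 in GFP, while the C1ql2 arrays overlap.

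**Figure D2:**
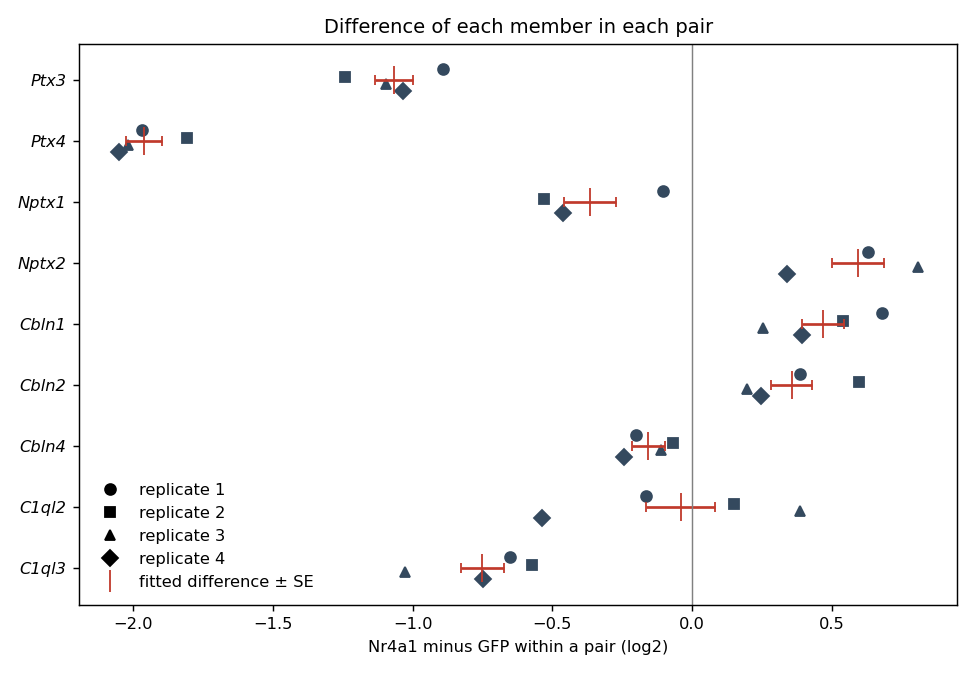
Difference of Nr4a1 minus GFP within each pair (log2, horizontal axis) for the 9 genes, with dark symbols for single pairs and a red cross for the fitted difference with its SE. Ptx3, Ptx4, C1ql3 and Cbln4 are below 0 in all 4 pairs, Cbln1 and Cbln2 are above 0 in all 4, and C1ql2 lies on each side of 0 in 2 pairs.

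The long pentraxin genes were both lower. Ptx4, a long pentraxin of little known function, had the larger difference of the pair. Its brighter probe, A_55_P2090909, read 1.04, 1.03, 1.04 and 0.81 in Nr4a1 replicates 1 to 4, against 3.00, 2.84, 3.06 and 2.86 in GFP. The dimmer probe, A_55_P2156800, read 0.68, 0.80, 0.86 and 0.54 in Nr4a1, against 2.61, 2.67, 2.87 and 2.55 in GFP. All Nr4a1 arrays lay below all GFP arrays with either probe, and the groups were separated by far more than their SDs of about 0.11 for the brighter probe. The fitted difference was -1.96 ± 0.06 (SE) with each probe, a level in Nr4a1 cultures of 25.7% of that in GFP cultures. It was the fourth-largest fall among all features tested and the 15th-largest difference in either direction.

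The reference RNA held little Ptx4, since Cy3 was well above background on 0 of 8 arrays for the brighter probe, so the ratio rests on the Cy5 channel. The median Cy5 signals of that probe were 118.5, 128.5, 141 and 103 in Nr4a1 and 516, 681.5, 581 and 494 in GFP. The Cy3 signals were 42.0 to 55.5 in Nr4a1 and 46.0 to 61.5 in GFP. With the Cy5 channel alone, quantile normalised between arrays, the difference was -2.14, and the pairs ran from -2.19 to -2.09. The separation was thus present in the culture RNA read alone.

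**Figure D3:**
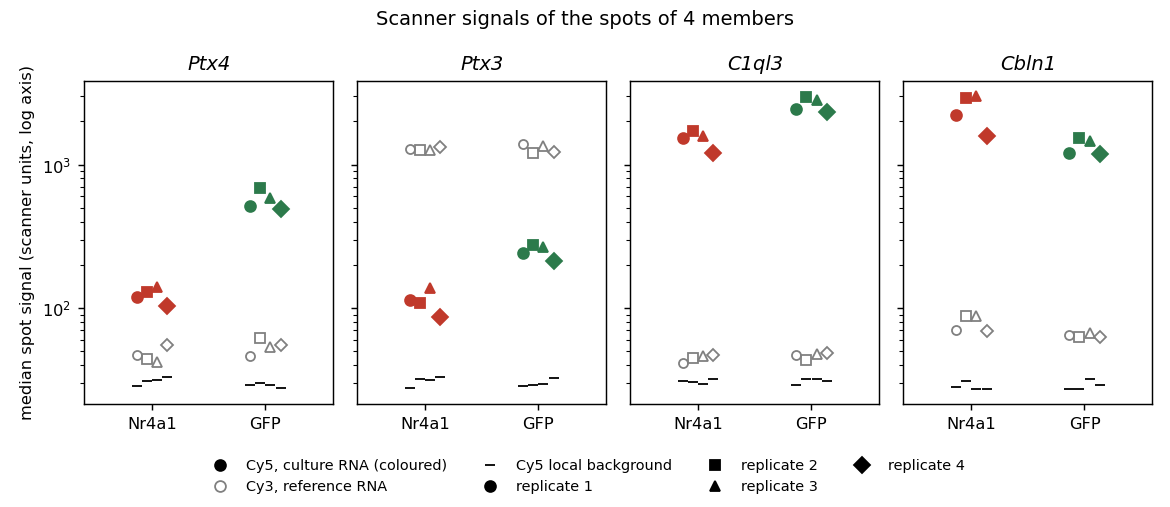
Median spot signals in scanner units (log axis) for Ptx4, Ptx3, C1ql3 and Cbln1 on each Nr4a1 and GFP array, with culture RNA in Cy5 as filled symbols, reference RNA in Cy3 as open symbols and the local Cy5 background as dashes. Reference signals are near background for Ptx4 and C1ql3 and lie between 1197.5 and 1403.5 for Ptx3, and the Cy5 symbols of the groups do not overlap in any of the 4 panels.

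Ptx3, a soluble pattern recognition protein induced by inflammatory cytokines, was low in these cultures relative to the reference RNA and lower still with Nr4a1. Its probe A_51_P374726 read -3.38, -3.67, -3.43 and -3.43 in Nr4a1 replicates 1 to 4, against -2.49, -2.42, -2.33 and -2.40 in GFP. The groups did not overlap, and the pair differences ran from -1.24 to -0.89. The fitted difference was -1.07 ± 0.07 (SE), or 2.09-fold lower on the scale shrunk by the offset, the 36th-largest fall. With an offset of 16 the Ptx3 difference was -1.32, and in Agilent's own ratio it was -1.74. For Ptx3 the reference was bright on all 8 arrays, at 1267.5 to 1328 Cy3 units on Nr4a1 arrays and 1197.5 to 1403.5 on GFP arrays. The Cy5 signals were 113, 108.5, 138 and 86.0 in Nr4a1, against 241, 275, 268 and 214 in GFP.

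The promoter of Ptx3 is shown because this gene fell and RefSeq holds its start site, and those of C1ql3 and C1ql2 are shown because these close relatives differed in call. Each is the 250 bases before the start on the gene's own strand, from RefSeq on GRCm38.p6, with CG dinucleotides in capitals. Ptx3 is chr3:66219637-66219886 on the plus strand, C1ql3 is chr2:13010865-13011114 on the minus strand, and C1ql2 is chr1:120340332-120340581 on the plus strand. Windows were available for 4 of the 10 genes, these and Cbln4.
Ptx3: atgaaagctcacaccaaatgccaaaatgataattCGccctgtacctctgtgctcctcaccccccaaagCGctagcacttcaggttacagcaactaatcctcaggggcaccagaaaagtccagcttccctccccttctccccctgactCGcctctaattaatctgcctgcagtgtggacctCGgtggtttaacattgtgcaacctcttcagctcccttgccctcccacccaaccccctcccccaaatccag
C1ql3: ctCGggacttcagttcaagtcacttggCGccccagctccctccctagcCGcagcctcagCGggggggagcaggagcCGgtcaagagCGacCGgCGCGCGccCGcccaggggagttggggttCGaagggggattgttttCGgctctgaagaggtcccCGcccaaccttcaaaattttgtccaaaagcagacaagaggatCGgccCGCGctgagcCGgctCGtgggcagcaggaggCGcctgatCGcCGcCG
C1ql2: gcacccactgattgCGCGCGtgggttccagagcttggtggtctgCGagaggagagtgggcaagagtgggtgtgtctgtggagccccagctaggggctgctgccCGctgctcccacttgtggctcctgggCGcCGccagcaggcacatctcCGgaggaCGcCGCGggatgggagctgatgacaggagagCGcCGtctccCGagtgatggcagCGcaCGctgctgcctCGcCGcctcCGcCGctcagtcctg

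The C1q-like promoters are rich in CG dinucleotides, with 23 in C1ql3 (66.4% G or C) and 20 in C1ql2 (68.8%), and the Ptx3 promoter holds 4 (54.0%). The median over the 250 bases before the start in 32851 RefSeq windows was 6 CG dinucleotides and 52.4% G or C. The NBRE, the element AAAGGTCA that Nr4a1 binds as a monomer, was searched on both strands together with the cyclic AMP response element TGACGTCA, and the NBRE contains the nuclear receptor recognition core AGGTCA. Neither occurs in the 300-base window of Ptx3, C1ql3, C1ql2 or Cbln4. Of all windows, 1.51% hold the NBRE and 1.79% the cyclic AMP response element, and the absence of a match says only that these letters are not in this stretch.

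Of the neuronal pentraxins, Nptx1 was lower and Nptx2 higher, by smaller amounts and with overlapping groups. Nptx1 (A_52_P109393), a constitutive member, read 1.98, 1.72, 2.24 and 1.61 in Nr4a1 replicates 1 to 4. In GFP it read 2.08, 2.25 and 2.07 in replicates 1, 2 and 4, and the spot on GFP replicate 3 was left out for a background marked as an outlier. Nr4a1 replicate 3 was as high as the highest GFP array, and the other Nr4a1 arrays lay below all GFP arrays.

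The fitted difference of Nptx1 over the 3 complete pairs was -0.37 ± 0.09 (SE), or 1.29-fold lower. With that spot kept, GFP replicate 3 read 2.09, its pair difference was 0.15 in favour of Nr4a1, and the fitted difference was -0.24 without a call. The call was kept in 8 of 18 alternatives, and was lost among others without replicate 2 (-0.28) and without replicate 4 (-0.32). The direction was the same in all 18.

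Nptx2 has 2 probes, and they differed. The brighter, A_52_P187058, read 1.56, 1.93 and 1.03 in Nr4a1 replicates 1, 3 and 4, against 0.93, 1.21, 1.12 and 0.69 in GFP replicates 1 to 4. The spot on Nr4a1 replicate 2 was left out for a background outlier. The pair differences were 0.63, 0.81 and 0.34, and the fitted difference was 0.59 ± 0.09 (SE), or 1.51-fold higher. With that spot kept it read 1.26, the pair difference was 0.03, and the fitted difference was 0.45, still called.

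The dimmer probe of Nptx2, A_55_P2147696, read 0.76, 0.73, 1.81 and 0.57 in Nr4a1, against 0.66, 0.61, 0.70 and 0.58 in GFP. Its difference of 0.33 ± 0.15 (SE) did not pass the threshold, and only replicate 3 stood clearly above its GFP partner, by 1.11. Raw Cy5 signals of the brighter probe showed the same array in front, at 247, 178, 647 and 112 units in Nr4a1 and 170, 213, 177 and 106.5 in GFP. Its Cy3 signals were 67, 64.5, 113 and 56 in Nr4a1 and 78, 64, 64 and 62 in GFP. Both channels were thus raised on Nr4a1 replicate 3. In Agilent's own ratio the pairs of this probe were 1.13, -0.47 and 0.63 in replicates 1, 3 and 4. The fitted difference there was 0.43 without a call. With the Cy5 channel alone the Nptx2 difference was 0.59 without a call, and the mean of both probes gave 0.33 without a call.

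Nptx2 was set beside 16 activity-regulated genes, of which 15 were tested, 5 were higher, 0 were lower and 10 did not pass. Their median difference was 0.65, and the median within a pair was 1.02, 0.01, 0.96 and 0.09 for replicates 1 to 4. Arc, an effector of synaptic plasticity, had a level of 3.55, 1.52, 3.88 and 1.82 in Nr4a1, against 1.41, 1.37, 1.48 and 1.14 in GFP. It rose by 1.34 ± 0.31 (SE, limma, adjusted p = 0.0117), higher in 4 of 4 pairs, though without replicate 1 the difference was 1.08 and the call was lost.

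The transcription factor genes Egr1 (0.65 ± 0.19, adjusted p = 0.0299) and Egr2 (1.39 ± 0.35, adjusted p = 0.0173) were also higher. Without replicate 1 the differences were 0.44 and 0.94, without replicate 3 they were 0.56 and 1.15, and neither was called. Egr1 was also not called without replicate 4 (0.67). Egr4 was higher by 0.60 ± 0.12 (adjusted p = 0.00561) in 4 of 4 pairs, and its sign turned in Agilent's own ratio (-0.45) and when no spot was left out of the background correction (-0.05). The Egr4 call was lost with a normexp offset of 16 (0.31). Keeping every spot changes the background correction of a whole array, not of a single gene. Pcsk1, a prohormone convertase gene, was higher by 0.96 ± 0.07 (adjusted p = 1.9e-05), and in 4 of 4 pairs, the smallest difference being 0.71. In Agilent's own ratio (0.36) and when no spot was left out for its background (0.27) Pcsk1 was not called. Arc, Egr1 and Egr2 had their largest differences in replicates 1 and 3, and Egr4 and Pcsk1 in replicates 1 and 4. The brighter Nptx2 probe, without a value in replicate 2, also had its largest differences in replicates 1 and 3. In Agilent's own ratio, however, its replicate 3 pair was at -0.47. The dimmer Nptx2 probe was clearly higher in replicate 3 alone. Whether the state of activity in single cultures had a part in the Nptx2 difference was not tested.

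**Figure D4:**
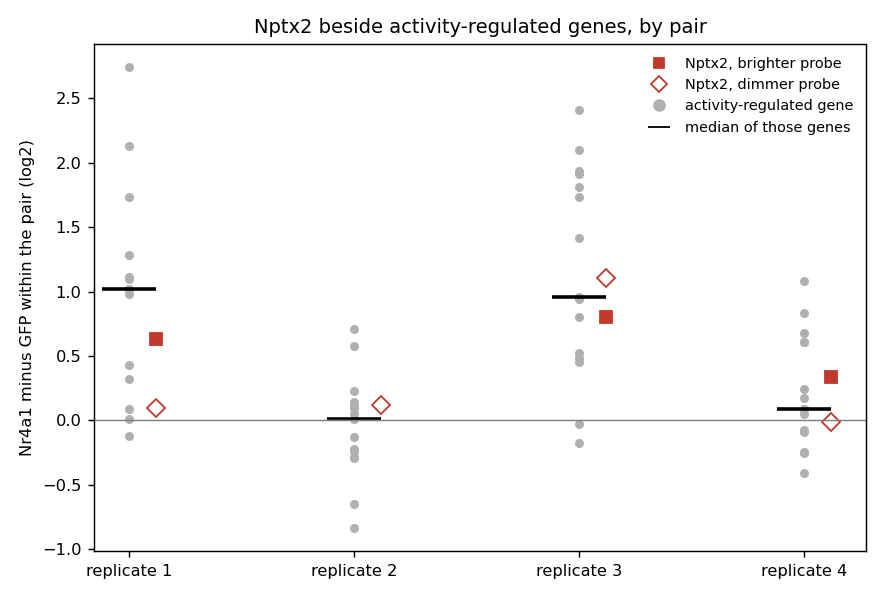
Difference of Nr4a1 minus GFP (log2, vertical axis) within each replicate pair (horizontal axis) for the activity-regulated genes in grey, with their median as a black line, and for both probes of Nptx2 in red. The grey medians are 1.02, 0.01, 0.96 and 0.09 in replicates 1 to 4, and the brighter Nptx2 probe, which has no value in replicate 2, is at 0.63, 0.81 and 0.34 in the others.

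Partners of the neuronal pentraxins were read next. Of the 4 AMPA receptor subunit genes and Adam17, the protease that sheds the neuronal pentraxin receptor, 0 of 5 were higher and 2 lower, with a median difference of -0.06. Gria4 was lower, with a difference of -0.26 ± 0.06 (SE, limma, adjusted p = 0.00881) and in 4 of 4 pairs. Its call was lost with median centring (-0.23) and with the mean of its probes (-0.21). It was also lost in Agilent's own ratio (-0.38) and when no spot was left out for its background (-0.87). Gria3 was lower, with a difference of -0.48 ± 0.13 (adjusted p = 0.0291) over the 3 pairs with values, and its call was kept in 9 of 18 alternatives. The mean of its 2 probes gave -0.09 without a call. The call was also lost without replicate 2 (-0.31) or replicate 3 (-0.41), without the pair block (-0.39) and with batch as the block (-0.39). When no spot was left out for its background the Gria3 call was lost too (-0.80). Gria1 (-0.06 ± 0.06, adjusted p = 0.532) and Adam17 (0.08 ± 0.06, adjusted p = 0.372) did not pass.

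Among the cerebellins, Cbln1 and Cbln2 were higher and Cbln4 did not pass. Cbln1, a neurexin ligand best known from cerebellar synapses, was read by A_55_P1984591 at 4.46, 4.33, 4.26 and 4.36 in Nr4a1, against 3.78, 3.79, 4.01 and 3.97 in GFP. The groups did not overlap, and all 4 pairs were above 0, from 0.25 to 0.68. The fitted difference was 0.47 ± 0.08 (SE), or 1.38-fold higher.

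The Cy5 signals of Cbln1 were 2214, 2899.5, 3024 and 1593.5 in Nr4a1, against 1205.5, 1537, 1460.5 and 1190 in GFP. Its Cy3 signals were 68.5 to 88.0 on Nr4a1 arrays and 62.5 to 66.5 on GFP arrays, so the reference signal was also higher on the Nr4a1 arrays. With the Cy5 channel alone the difference was 0.67, and in Agilent's own ratio it was -0.08. When no spot was left out of the background correction it was -0.10, where Nr4a1 replicate 2 alone fell to 2.07 and the other 3 pairs stayed between 0.26 and 0.68.

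Cbln2, a neurexin ligand of many forebrain synapses, was read by A_55_P2088178 at 1.16, 1.46, 1.46 and 1.33 in Nr4a1, against 0.77, 0.86, 1.27 and 1.09 in GFP. The groups overlapped, and all 4 pairs were above 0. The difference was 0.36 ± 0.07 (SE), or 1.28-fold higher. The Cy5 signals were 290, 347, 355 and 230 in Nr4a1 and 200, 316, 288.5 and 215 in GFP, and the Cy3 signals were 89.5 to 111 in Nr4a1 and 105 to 137 in GFP. The reference signal was thus mostly lower on the Nr4a1 arrays, and with Cy5 alone the difference was 0.11 without a call.

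Cbln4, a cerebellin that also binds Dcc and Neo1, was the dimmest of the group, with Cy5 well above background on 1 of 4 Nr4a1 arrays and 3 of 4 GFP arrays. The probe A_52_P432245 read 0.57, 0.70, 0.94 and 0.50 in Nr4a1, against 0.77, 0.77, 1.05 and 0.75 in GFP. It was lower in 4 of 4 pairs, the groups overlapped, and the fitted difference was -0.16 ± 0.06 (SE). It did not pass here, and it passed in 3 of 17 alternatives: Cy5 alone (-0.23), Agilent's own ratio (-0.63) and the authors' value table (-0.17).

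The C1q-like genes differed from each other in call. C1ql3, which in mouse hippocampus recruits kainate receptors at mossy fibre synapses, was read by A_55_P1954196 at 4.51, 4.37, 4.21 and 4.39 in Nr4a1, against 5.16, 4.95, 5.24 and 5.14 in GFP. The groups did not overlap, and the pair differences ran from -1.03 to -0.57. The fitted difference was -0.75 ± 0.08 (SE), 1.68-fold lower, the 143rd-largest fall. Cy3 was well above background on 0 of 8 arrays. The Cy5 signals were 1534, 1718, 1581 and 1198.5 in Nr4a1, against 2440, 2943, 2830.5 and 2318.5 in GFP, and with Cy5 alone the difference was -0.95.

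C1ql2, its partner at those synapses, was read by A_52_P483959 at 1.47, 1.71, 2.08 and 1.15 in Nr4a1, against 1.63, 1.56, 1.69 and 1.68 in GFP. The Nr4a1 arrays spread widely (SD 0.39, n = 4) around the narrow GFP group (SD 0.06, n = 4). The pair differences were -0.16, 0.15, 0.39 and -0.54, and the fitted difference of -0.04 ± 0.12 (SE) did not pass. The sign turned without replicate 4 (0.12) and in Agilent's own ratio (0.36), so no direction is given for C1ql2. The difference between C1ql3 and C1ql2 was not tested.

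Markers of dentate granule cells were read beside the C1q-like genes. Of 6 markers 5 were tested, with 1 higher, 2 lower and a median of -0.12. Their summed processed Cy5 signal was 983 to 1191 units on Nr4a1 arrays and 869 to 1522 on GFP arrays. Calb1, a calcium buffer of mature granule cells, was lower, with a difference of -1.19 ± 0.09 (limma, adjusted p = 2.8e-05) over 3 pairs, and so was Dsp, with -0.48 ± 0.09 (adjusted p = 0.00323). Trpc6 was higher by 0.71 ± 0.06 (adjusted p = 4.9e-05), and it was 0.29 and not called when no spot was left out for its background. Dock10 did not pass (-0.12 ± 0.07, adjusted p = 0.272), nor did Prox1 (0.03 ± 0.06, adjusted p = 0.754). Prox1 was well above background on 2 of 4 Nr4a1 arrays and 3 of 4 GFP arrays, and Tdo2 on 0 of 8 arrays. The part of granule cell number or state in the C1ql3 difference was not tested.

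Of 10 receptor genes of cerebellins and C1q-like proteins 9 were tested, with 1 higher, 2 lower, 6 not passing and a median of -0.14. Nrxn3, a presynaptic neurexin, was higher by 0.41 ± 0.10 (limma, adjusted p = 0.0219) over 3 pairs. The call was lost without replicate 1 (0.27) or replicate 4 (0.38), and the sign turned when no spot was left out of the background correction (-0.02). The mean of its probes gave 0.15 and Agilent's own ratio 0.23, neither called. Nrxn2 was lower, with a difference of -0.28 ± 0.08 (adjusted p = 0.0392) over 3 pairs, and its call was lost without replicate 1 (-0.24), without replicate 3 (-0.21) and with median centring (-0.16), and kept in 9 of 18 alternatives. Neo1, a receptor that binds Cbln4, was lower, with a difference of -0.31 ± 0.07 (adjusted p = 0.0138) over 3 pairs and lost its call without replicate 3 (-0.26) and with median centring (-0.18). Grik4, a kainate receptor subunit gene, did not pass (-0.21 ± 0.09, adjusted p = 0.117).

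Among known binding partners of Ptx3, Tnfaip6 was bright but had values on only 2 Nr4a1 arrays, and Fgf2 was too dim, so neither was tested.

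Inflammatory genes that are often induced together with Ptx3 were set beside it. Of 8 such genes 6 were tested, with 2 higher, 0 lower and a median of 0.08. Nfkbia, an inhibitor of NF-kappaB that is itself an NF-kappaB target, was higher by 0.29 ± 0.06 (limma, adjusted p = 0.00864), and Lcn2, an acute phase gene, by 0.23 ± 0.06 (adjusted p = 0.0211), each in 4 of 4 pairs. With Cy5 alone the Nfkbia difference was 0.14 without a call. The Lcn2 call was lost without replicate 2 (0.25) or replicate 4 (0.19). The chemokine genes Ccl2 (0.12 ± 0.06, adjusted p = 0.185) and Cxcl1 (0.05 ± 0.06, adjusted p = 0.581) did not pass, and Il6 and Il1b were too dim to test.

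Markers of non-neuronal cells that can make Ptx3 were measured as well. Of 9 microglial markers 5 were tested, 0 were higher and 1, Csf1r, was lower (-0.76 ± 0.07, limma, adjusted p = 8.5e-05). Their summed processed Cy5 signal was 20393 to 26019 units on Nr4a1 arrays and 19847 to 28376 on GFP arrays. Aif1, Tmem119 and Itgam did not pass, P2ry12 exceeded the detection limit on 0 of 8 arrays, and Cx3cr1 did so on 1 GFP array. Of 8 fibroblast, mural and endothelial markers 0 were higher and 2 lower, namely Lum (-0.91 ± 0.07, adjusted p = 4.1e-05) and Dcn (-0.59 ± 0.07, adjusted p = 3.6e-04). Their summed signal was 13417 to 18015 units in Nr4a1 and 13596 to 17333 in GFP. Of 9 astrocyte markers 8 were tested, with 3 higher (Aqp4, Gja1 and Sox9) and 0 lower, and summed signals of 396600 to 486240 units in Nr4a1 and 349490 to 493940 in GFP. Aqp4 turned sign in Agilent's own ratio (-0.10) and when no spot was left out for its background (-0.21). Their part in the Ptx3 difference was not tested.

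The label of the cultures was checked on neuronal markers. All 8 pan-neuronal markers were bright enough to test, and 2 were higher (Eno2 and Nefm), 1 was lower (Syt1) and 5 did not pass. These calls were lost without replicate 1 for Eno2 (0.25) and Syt1 (-0.19) and without replicate 4 for Nefm (0.22). Nefm turned sign in Agilent's own ratio (-0.25) and when no spot was left out for its background (-0.21). Of 6 pyramidal neuron markers 5 were tested, 0 were higher and 2 were lower, Neurod6 (-0.38 ± 0.06, limma, adjusted p = 0.00222) and Fibcd1 (-0.67 ± 0.08, adjusted p = 2.9e-04). Fibcd1 was well above background on 2 of 4 Nr4a1 arrays and 4 of 4 GFP arrays, and Neurod6 turned sign in Agilent's own ratio (0.04). Of 9 interneuron markers 1 was higher (Dlx1, 0.41 ± 0.07) and 1 lower (Sst, -0.23 ± 0.06). The Sst call was kept in 9 of 18 alternatives. It was lost among others without replicate 1 (-0.21), replicate 2 (-0.23) or replicate 3 (-0.21), and in Agilent's own ratio (-0.12). Summed signals of the pyramidal neuron markers were 34929 to 51726 units in Nr4a1 and 42147 to 60416 in GFP, and those of the interneuron markers 89609 to 124260 in Nr4a1 and 86699 to 132230 in GFP.

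Of 6 Cajal-Retzius cell markers, Lhx5 was higher (0.26 ± 0.07, limma, adjusted p = 0.0179) and Calb2 lower (-0.91 ± 0.10, adjusted p = 1.8e-04). Reln (-0.10), Trp73 (0.08), Lhx1 (-0.09) and Ndnf (-0.10) did not pass. Calb2 was not called with Agilent's own ratio (-0.37) or when no spot was left out for its background (-1.49). The Lhx5 call was lost without replicate 3 (0.20) or replicate 4 (0.26). Summed signals of the 6 markers were 2610 to 4023 units in Nr4a1 and 5831 to 7667 in GFP. A single bright gene can carry such a sum. Calb2, the only marker called lower, had the highest level of the 6, with a mean of 3.82 in Nr4a1 and 4.74 in GFP. Among the 8 markers of the oligodendrocyte lineage, 5 rose and 1 fell, with summed signals of 62445 to 85342 units in Nr4a1 and 21880 to 39111 in GFP. Mbp, a myelin protein gene, was lower, with a difference of -0.94 ± 0.09 (limma, adjusted p = 6.8e-05), and Pdgfra, a receptor gene of oligodendrocyte precursors, was higher by 0.76 ± 0.06 (adjusted p = 3.3e-05). The part of these cells in the differences of Cbln1, Cbln2 and the pentraxins was not tested.

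Most other genes of these families were below detection. Crp, Mptx1, Cbln3 and C1ql4 were well above background on 0 of 8 arrays. C1ql1 was above it on 1 Nr4a1 array and 1 GFP array, and Mptx2 had no probe. Apcs, which encodes serum amyloid P component, was the only one tested, at 0.27, 0.08, 0.29 and 0.42 in Nr4a1, against 0.18, 0.41, 0.33 and 0.31 in GFP. Its groups overlapped, and the difference of -0.04 ± 0.08 (SE, limma, adjusted p = 0.756) did not pass.

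Likeness of profile was measured as the root mean square distance between levels, each centred on its own mean, and is a description. Over 8 arrays the named genes nearest to Ptx4 were Ackr3, a chemokine scavenger receptor gene, at a distance of 0.227, then Trhr (0.239), Plekhd1 (0.254), Tiam2 (0.278) and Olfml2b (0.289). Their differences of Nr4a1 minus GFP were -1.65 ± 0.06, -1.64 ± 0.13, -1.47 ± 0.06, -1.47 ± 0.06 and -1.46 ± 0.06 log2 units. The Ptx4 difference of -1.96 was larger in size than that of each of these 5.

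Over the 7 arrays with a value for the brighter Nptx2 probe, the nearest were Per2, a clock gene, at 0.105, then Col10a1 (0.115), Klf9 (0.117), Mest (0.132) and Cadps2 (0.139). Per2 read 1.24, 0.58, 1.57 and 0.70 in Nr4a1, against 0.78, 0.75, 0.83 and 0.49 in GFP. Klf9, a transcription factor gene, read 1.91, 1.76, 2.08 and 1.52 in Nr4a1, against 1.38, 1.51, 1.37 and 1.12 in GFP. In Per2 and Klf9, Nr4a1 replicates 1 and 3 were the highest of the 8 arrays. Both genes were picked for likeness to Nptx2, which was itself highest on those arrays. The shared pattern therefore follows from the choice and is not a separate observation.

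Across 18 other ways of processing the arrays, Ptx4 kept its direction and its call in 17, between -2.60 and -1.93, and lost its call in 1. Ptx3 lay between -1.74 and -0.63 and kept its call in 16, and C1ql3 lay between -1.45 and -0.66 and kept it in 15. Cbln1 kept its call in 15, Cbln2 in 14, Nptx2 in 12 and Nptx1 in 8. Replicate 4 makes up batch 2 of the labels, and within batch 1 the differences were -1.93 for Ptx4, -1.08 for Ptx3, -0.75 for C1ql3, 0.49 for Cbln1, 0.39 for Cbln2 and 0.72 for Nptx2, all called. The single pair of batch 2 gave -2.05, -1.03, -0.75, 0.39, 0.25 and 0.34 for the same genes in that order. With the slide added to the pair fit as a random effect, 0 of the 9 genes and 5 of all features passed, and the Ptx4 difference was -1.99 there. When no spot was left out for its background, Ptx4 alone of the 9 passed, and Ptx3 read -1.92 on Nr4a1 replicate 2 in place of -3.67.

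**Figure D5:**
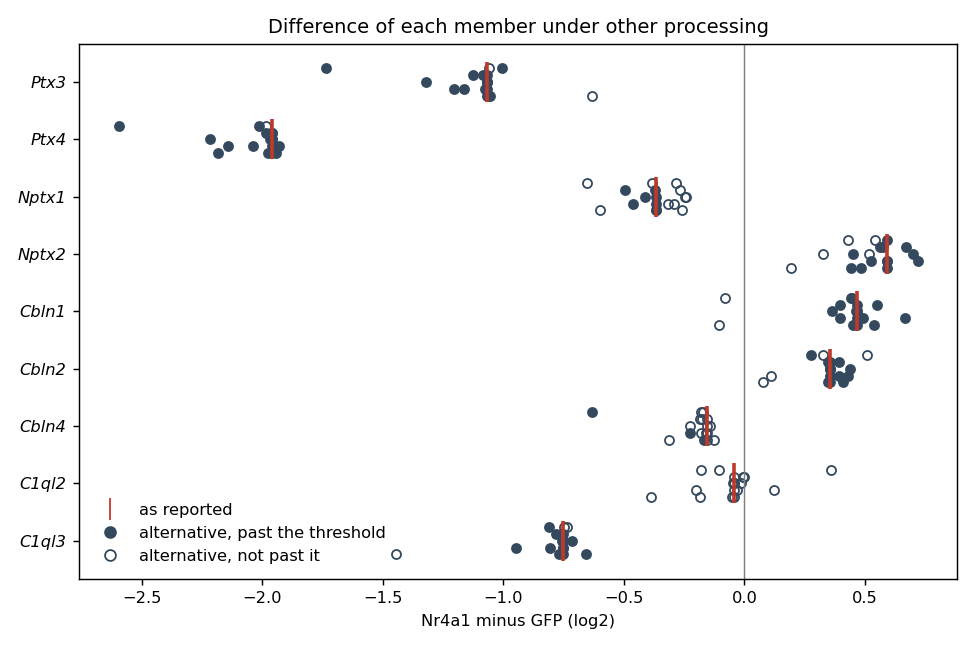
Difference of Nr4a1 minus GFP (log2, horizontal axis) for each gene, as reported (red bar) and under 18 other ways of processing (circles, filled where past the threshold). Ptx4, Ptx3 and C1ql3 stay below 0 throughout, Cbln1 has 2 open circles below 0, and C1ql2 has circles on each side of 0.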

How the data were processed

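Gene expression was measured on 8 arrays of 2 colours, 4 Nr4a1 and 4 GFP. Per the file headers, Agilent Feature Extraction 11.0.1.1 recorded, per spot and channel, median intensity and the intensity of the surrounding background. The same deposited files hold processed intensity values and, as log10, the Cy5 to Cy3 ratio. The authors deposited a table of 24275 probes whose scale, centring and direction are unstated. The authors' values were read as log2 of sample over reference, made by normalisation steps not stated, because the columns followed the ratios computed here with correlations of 0.998 to 1.00 and slopes of 0.992 to 1.01, and the column medians ran from 0.0240 to 0.0312. The submitters' processing notes name Feature Extraction and limma without settings.

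Here limma 3.58.1 in R 4.3.3 was used, with normexp (offset 50, which shrinks folds of dim probes) and loess within arrays. Spots with a background marked non-uniform or an outlier were left out. Spots themselves marked non-uniform or an outlier were left out as well, also in the alternatives that started from the scanner files. A RefSeq table (GRCm38.p6) named 26581 of 39429 probes. The brightest probe stood for a gene, and a gene needed at least 4 of 8 arrays with Cy5 well above background and at least 3 values a group, which left 20960 features. The two-sided fit had the pair as a block, from the pair tag in the labels, with Benjamini-Hochberg adjustment over all features at 0.05. Deviations from group means correlated within pairs at -0.10, 0.29, -0.01 and 0.42. Differences are Nr4a1 minus GFP.

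The genes and all gene lists were chosen with earlier results of these data known, so no count over a list is independent evidence. Named genes are all listed members and their relatives, the 4 tested genes of smallest p and all called genes of each other list (of some marker lists only examples are given, and some listed genes are not reported here), the 5 nearest profiles to Ptx4 and Nptx2, and the NR4A genes. All dentate granule and Cajal-Retzius cell markers are named as well. The number of arrays limits the precision. The fit was tested on simulated data, and 18 alternatives were tried.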

Additional observations from a re-analysis of the deposited data

Results flagged for a closer look

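A group of 4 arrays was marked where its highest or lowest array stood apart from the nearest other array by a share of the group's range above Dixon's 95% critical value. Of 20 groups checked, 4 were marked, and chance marks about 1 in 20. Ptx3 was lowest on Nr4a1 replicate 2, at -3.67 against -3.43 to -3.38 on the other Nr4a1 arrays. Ptx4 (brighter probe) was lowest on Nr4a1 replicate 4, at 0.81 against 1.03 to 1.04 on the others. The dimmer Nptx2 probe was highest on Nr4a1 replicate 3, at 1.81 against 0.57 to 0.76 on the others. Cbln4 was highest on GFP replicate 3, at 1.05 against 0.75 to 0.77 on the other GFP arrays.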

How the results depend on the processing

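Of all features, 2603 were higher and 2325 lower. With all spots in the background correction these counts were 130 and 100, with Agilent's own ratio 1367 and 1193, and with slide as a random block (correlation 0.864) 3 and 2. Median centring in place of loess gave 3145 and 1274, so 71.2% of calls were higher there and 52.8% with loess. Leaving out a pair gave 1717 to 2481 higher and 1550 to 1875 lower. Of the 9 genes, 3 were higher and 4 lower, and leaving out a pair gave 3 to 3 and 3 to 4. The counts were 0 and 1 with all spots, and 0 higher with Agilent's own ratio, 1 higher with Cy5 alone, and 0 and 0 with the slide block. Cbln1 turned to -0.10 with all spots and -0.079 with Agilent's own ratio. C1ql2 turned to 0.36 with Agilent's own ratio and ran from -0.18 to 0.12 when a pair was left out, above 0 without replicate 4. Without the replicate block, 2281 features were higher and 2055 lower, Nptx1 (-0.25) and Nptx2 (0.52) lost their calls, and no other call of the 9 genes changed. Keeping spots with an outlier background, an alternative chosen after seeing the data, gave 2706 and 2434. Against that setting, keeping all spots moved the 9 genes toward 0 on Nr4a1 replicate 2, and their other arrays hardly moved. On that array C1ql3 read 1.61 in place of 4.37, and Nptx1 read 0.29 in place of 1.71. Nr4a1 replicate 2 had 37 spots with a non-uniform background, and the other arrays had 0 to 10. The cause of the changes between settings was not tested. Dim reference RNA limits the ratios of Ptx4, Nptx1, Nptx2, C1ql2, C1ql3 and Cbln4.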
